A study of Mus musculus with 6 samples.

Results

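Cytoplasmic ribosomal protein genes encode the proteins of the large (60S) and small (40S) subunits of the ribosome, which reads messenger RNA and joins amino acids in the cytoplasm. Early erythroblasts depend on heavy ribosome production, because they must make large amounts of globin before the nucleus is lost. Loss of 1 copy of several of these genes causes Diamond-Blackfan anaemia in people, in which red cell precursors fail. Their messengers typically begin with a stretch of pyrimidines, through which mTOR and the RNA-binding protein LARP1 control translation, so protein output can differ while messenger levels do not.

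The members were the genes whose symbol on the array's annotation has the form of a cytoplasmic ribosomal protein, from probe sets that name a single gene. The rule gave 49 genes of the 18193 measured in all, and 105 probe sets carry their names. Where a gene had several probe sets, the brightest one (by mean log2 intensity) stood for it. The study sorted bone marrow cells that were positive for Ter119, an erythroid surface antigen, and for CD71, the transferrin receptor, and that had high forward scatter, a measure of cell size. Cells came from 3 wild-type mice (WT 497, 504 and 550) and 3 mice with a knockout of the miR-144 and miR-451 locus (KO 493, 548 and 551), with 1 array of total RNA each. Numbers in the sample titles were read as those of mice, although no label states this. A sample characteristic repeats the number under the heading of a microRNA construct, so this reading is an assumption. Strain, age, sex and litter are not given in the sources used here, nor is whether the deletion was made in all cells or only in blood cells. Markers of the labelled cell type were bright: 9 of 10 listed erythroid genes were measured, with 0 genes under a log2 intensity of 6. Averaged over these genes, the WT arrays lay between 12.32 and 12.42 and the KO arrays between 12.25 and 12.29. The neutrophil markers S100a9 and S100a8 were brighter still, with WT means of 13.45 and 13.27, against 13.11 for Slc4a1, the brightest erythroid marker. Erythroid brightness therefore shows that the labelled cells were present, but not how pure the sort was.

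The sequences that the knockout lacks, and the start sites of members named in the results, are shown from RefSeq (build GRCm38.p6), 5′ to 3′. In the microRNAs, capitals mark the seed, bases 2 to 8.
mmu-miR-144-3p, chr11:78073047-78073066, plus strand: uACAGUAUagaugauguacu
mmu-miR-451a, chr11:78073186-78073207, plus strand: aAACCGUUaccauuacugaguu

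For the genes, each line runs from 10 bases before the annotated start to 20 bases from it onward, and capitals mark the longest uninterrupted run of pyrimidines (C or T) on the sense strand where it has at least 8 bases; a shorter further run, as in Rpl38, stays in lower case.
Rpl27a, chr7:109519185-109519214, plus strand: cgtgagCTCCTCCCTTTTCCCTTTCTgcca
Rpl35, chr2:39005112-39005141, minus strand: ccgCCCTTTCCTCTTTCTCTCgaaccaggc
Rpl38, chr11:114668570-114668599, plus strand: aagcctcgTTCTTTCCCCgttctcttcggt
Rpl39, chrX:37085203-37085232, minus strand: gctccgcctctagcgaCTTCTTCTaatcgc
Rps6, chr4:86857348-86857377, minus strand: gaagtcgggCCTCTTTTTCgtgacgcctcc
Rps9, chr7:3704031-3704060, plus strand: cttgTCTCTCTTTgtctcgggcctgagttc
Rps7, chr12:28635934-28635963, minus strand: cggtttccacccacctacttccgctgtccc
Rpl27, chr11:101442235-101442264, plus strand: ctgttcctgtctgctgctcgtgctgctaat
Rplp0, chr5:115559457-115559486, plus strand: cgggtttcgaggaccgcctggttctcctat
Rpl7l1, chr17:46782637-46782666, minus strand: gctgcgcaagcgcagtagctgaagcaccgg

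Such a run of pyrimidines was more frequent at the start of members than over all windows, although most windows of members lacked it. The rule did not use this feature. Windows were found for 43 of the 49 genes, and 7 of these have several annotated starts. Of the 51 windows, 17 (33.3%) held a run of at least 8 pyrimidines on the sense strand, against 11.2% of all 32851 windows in the table and 8% of 75 windows of mitochondrial ribosomal protein genes. On the other strand the share was 3.92% for the members and 13.3% for all windows. The run was 20 bases long in Rpl27a and 18 in Rpl35. Among paralogues, which are duplicated copies of a ribosomal protein gene, 1 of 7 windows held it. The length of the run was chosen after the windows were seen, the annotated start can lie some bases away from the one used in these cells, and the shares are a description with no test. Runs before the annotated start count and shorter runs do not, so the shares do not count the stretches that messengers begin with. Rpl7, Rpl8, Rps14, Rps20, Rps29 and Rps4l had no window here.

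No cytoplasmic ribosomal protein gene was called different between erythroblasts with and without the miR-144 and miR-451 locus. With limma, which tests each probe set on the log2 scale and adjusts p over all 45037 probe sets (Benjamini-Hochberg), 0 of 49 members had an adjusted p under 0.05, against 0.385% of all genes (0.236% called higher and 0.148% lower in KO). The smallest adjusted p among members was 0.281. An unadjusted p under 0.05 occurred for 0 of 49 members and for 21% of all genes, and a fit with an intensity trend and a robust prior, which called 4.42% of all genes, also called 0 members. The median difference, log2 KO minus WT, was 0.007 over the members (25th to 75th percentile -0.03 to 0.027) and -0.037 over all genes (-0.23 to 0.133). In 37 of the 49 members the difference was under 0.1 in either direction.

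The members' signals lay near the top of the scale. In 36 of the 49 the mean log2 intensity was at least 12, a level that 472 of all genes reached, while the median of all probe sets on an array was 5.62 to 5.78 and the highest value 14.02 to 14.65. Differences in genes that bright were small in general (25th to 75th percentile -0.097 to 0.053). Even so, groups did not overlap in 37.1% of the 472, against 28.8% of all genes. An unadjusted p under 0.05 occurred for 5.72% of the 472, and 0% of them were called. These p-values include limma's prior SD of 0.173, above the median SD within groups of 0.0479 in the 472. The 95% interval of the difference lay within 0.5 of 0 for 37 of 49 members, for 43.2% of all genes, for 33 of the 36 bright members and for 91.5% of all bright genes. How far the top of the scale compresses differences was not tested. A member with the median standard error would have needed a difference of 0.707 on the log2 scale (1.63-fold) to be called, and the standard errors of 0.0912 to 0.495 include limma's prior, whose SD of 0.173 is estimated from all features.

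**Figure D1:**
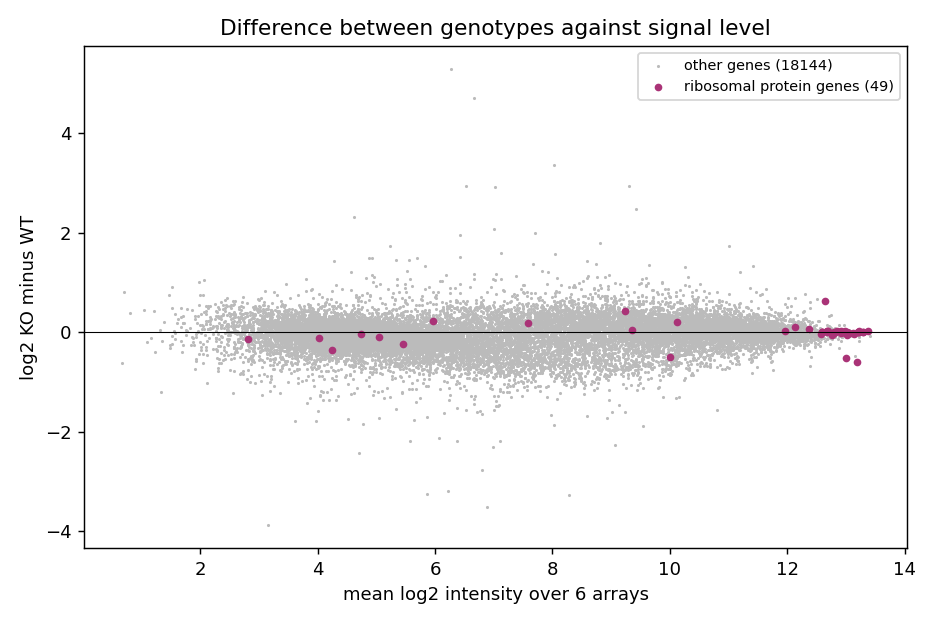
Difference between genotypes (log2 KO minus WT, vertical axis) against the mean log2 intensity over 6 arrays (horizontal axis), with 1 point for each of 18193 genes. The 49 ribosomal protein genes are coloured; 36 of them lie at a mean of 12 or more, most of them close to the zero line.

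The direction of these small differences depended on how arrays were scaled. KO means were lower for 18 members, higher for 29 and equal for 2, and over all genes 55.7% were lower (10127 of 18193). With each array centred on its median, which moves the median of all genes from -0.037 to 0.073, 7 members were lower and the members' median was 0.117, and groups did not overlap in 21 members and 30.9% of all genes. With cyclic loess 29 were lower and the median was -0.004. In both fits 0 members were called, so no direction is given for the family.

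Most bright members held a nearly constant value over all 6 arrays. Leaving aside the 3 genes with a single high array described below, the difference between the highest and lowest of the 6 arrays ran from 0.03 to 0.25 in 33 members, with a median of 0.1. Differences between the groups in these 33 ran from -0.053 (Rps20) to 0.097 (Rps27l), and their 95% intervals reached no further than -0.282 and 0.342. In 27 of the 36 bright members every KO value lay within the range of the WT values.

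What variation there was ran along WT arrays more than between genotypes. WT 504 held the single highest value for 25 of the 36 bright members and WT 550 the single lowest for 21. Relative to each gene's median over the arrays, the median of the bright members was 0.055 in WT 504, -0.01 in WT 497 and -0.03 in WT 550. In KO 493, 548 and 551 it was 0, 0.003 and 0.01. Over all bright genes the same quantity ran from 0.005 to 0.01 on the WT arrays and from -0.01 to 0 on the KO arrays. The median SD over 3 arrays was 0.054 in WT and 0.0153 in KO for the 36 bright members, and was larger in WT for 33 of them. For the 436 other bright genes it was 0.046 and 0.0451, larger in WT for 239. The difference in spread itself was not tested.

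**Figure D2:**
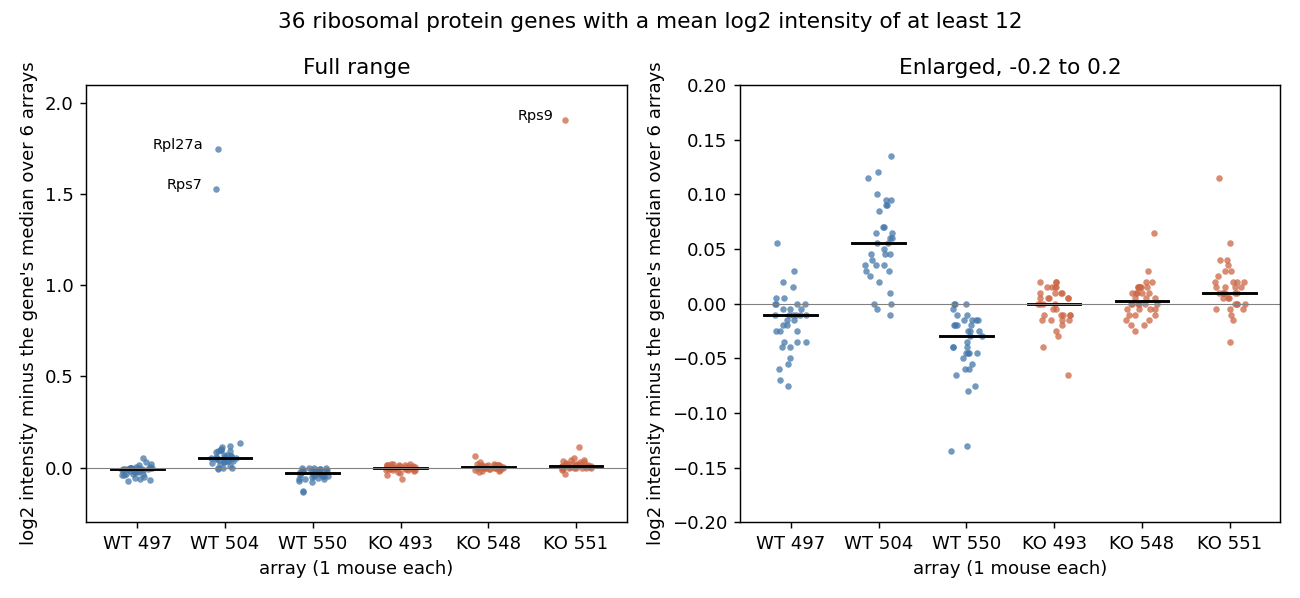
Deviation of each of the 36 bright ribosomal protein genes from its own median over 6 arrays (log2, vertical axis) on every array (horizontal axis), with black bars at the median; WT is blue and KO orange. On the left Rpl27a and Rps7 stand apart on WT 504 and Rps9 on KO 551, and on the right, enlarged, WT 504 lies at 0.055 and WT 550 at -0.03.

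Without WT 504 the 49 members had a median difference of 0.03, 11 were lower in KO, and groups did not overlap in 21 (42.8% of all genes). Without WT 550 the median was -0.007, 33 were lower and groups did not overlap in 6 (37.7% of all genes). The members' median was -0.02 when KO 493 was compared with WT 497 and 504, and 0.05 when KO 548 and 551 were compared with WT 550. Among bright genes, the 3 KO values lay wholly apart from the 3 WT values in 1 of 36 members and in 174 of the 436 others. Over all members this held for 3 of 49, 2 above and 1 below, against 28.8% of all genes (12.5% above and 16.2% below).

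Those 3 genes had small differences. Rpl35, a large-subunit protein near the exit of the peptide tunnel, was at 13.23, 13.23 and 13.20 in WT 497, 504 and 550, and at 13.25 in each KO array. The difference was 0.03 ± 0.09 (log2, SE, n = 3 per group; limma adjusted p = 0.886). Rpl7l1, a paralogue of Rpl7 that takes part in ribosome assembly, was at 10.12, 10.01 and 9.94 in WT and at 10.34, 10.19 and 10.15 in KO. Its KO values all lay higher, but the difference of 0.20 ± 0.11 was not called (adjusted p = 0.349, limma). Rpl39, a short protein of the exit tunnel, was at 5.58, 5.49 and 5.63 in WT and at 5.21, 5.36 and 5.42 in KO, a difference of -0.24 ± 0.11 with the smallest adjusted p of the members (0.281, limma). A brighter probe set of Rpl39, which also names a predicted gene, was at 12.61, 12.75 and 12.6 in WT and 12.55, 12.6 and 12.58 in KO, so the groups met at 12.6 and the difference was -0.08 ± 0.10.

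Among large-subunit members other than paralogues, 0 of 22 were called and the median difference was 0.007. Rplp0, the base of the stalk that recruits elongation factors, was at 12.64, 12.74 and 12.66 in WT and 12.70, 12.67 and 12.69 in KO. The groups overlapped, with a difference of 0.007 (95% interval -0.217 to 0.23). Rplp2, another stalk protein, was at 13.23 ± 0.04 in WT and 13.23 ± 0.01 in KO (SD, n = 3). Rpl11, which travels with 5S ribosomal RNA and can bind the p53 inhibitor MDM2 when ribosome assembly stalls, was at 12.63, 12.75 and 12.60 in WT and 12.70, 12.66 and 12.71 in KO. Its difference was 0.03 (95% interval -0.203 to 0.263). Of the exit tunnel list 5 of 9 genes were members, through probe sets with a single name, and 0 were called.

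Among small-subunit members 0 of 21 were called and the median difference was 0.003. Rps19, the gene most often mutated in Diamond-Blackfan anaemia, was at 12.83, 12.90 and 12.80 in WT and 12.87, 12.84 and 12.87 in KO. Its groups overlapped, with a difference of 0.017 (95% interval -0.207 to 0.24). A dimmer probe set that names Rps19 and a pseudogene was at 7.12, 6.63 and 6.94 in WT and 7.96, 7.87 and 7.51 in KO, wholly above, with a difference of 0.88 ± 0.18 (SE, limma adjusted p = 0.0892). It is 1 of 3 shared probe sets, of 109, with an unadjusted p under 0.05, beside those of Rpl13 (-0.34) and Rpl30 (0.34), all chosen here after their values were seen. None of the 109 was called by limma, and of the 105 probe sets with a single name 0 had such a p. Rps14, whose loss of 1 copy underlies the anaemia of the 5q- syndrome, was at 12.53, 12.68 and 12.57 in WT and 12.56, 12.60 and 12.64 in KO. Its difference was 0.007 (95% interval -0.228 to 0.241), so all 6 values lay within a narrow band. Rps20, a protein of the head of the small subunit, was at 13.05 ± 0.06 in WT and 12.99 ± 0.05 in KO (SD, n = 3). Rps24 was at 12.76, 12.85 and 12.73 in WT and at 12.73 in all 3 KO arrays.

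Of 21 genes listed for Diamond-Blackfan anaemia, 12 were members. The list, like the others, was written with earlier results of these data known. None of the 12 was called by limma and 0 had an unadjusted p under 0.05. The median difference was 0.005, and 10 of the 12 had a 95% interval within 0.5 of 0. The 4 with the smallest p were Rps7, Rps20, Rps27 (0.22 ± 0.21, SE), and Rpl27 (0.06 ± 0.10). Rps7 had a single high array, WT 504 at 14.28, described below. Rps27 was dim on its probe set (5.86 in WT and 6.08 in KO). On a brighter probe set that carries several names, its difference was -0.007 (95% interval -0.227 to 0.214).

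The largest differences came from single arrays. In Rpl27a, Rps7 and Rps9 the highest array lay at least 1 log2 unit above the next, which occurred, in either direction, for 1.32% of all genes and 3.39% of bright genes. Rpl27a, a large-subunit protein, was at 12.89, 14.65 and 12.90 in WT 497, 504 and 550 and at 12.86, 12.91 and 12.90 in KO. WT 504 alone stands apart, and its 14.65 is the highest value of any probe set on that array. The difference was -0.59 ± 0.46 (SE, limma adjusted p = 0.513) and 0 (adjusted p = 0.984) without WT 504. The probe set of Rpl27a that carries several gene names ran from 13.15 to 13.21 over the 6 arrays.

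Rps7, a small-subunit protein that acts in early processing of 18S ribosomal RNA, was at 12.74, 14.28 and 12.75 in WT and 12.75, 12.74 and 12.76 in KO. Its difference was -0.51 ± 0.40, and 0.01 without WT 504 (limma adjusted p = 0.524 and 0.984). A further probe set that names only Rps7 was at 12.84 on WT 504 and at 12.82 to 12.87 on the others. Rps9, a small-subunit protein, was at 12.29, 12.39 and 12.30 in WT and at 12.31, 12.34 and 14.23 in KO 493, 548 and 551. Here KO 551 stands apart, and the difference of 0.63 ± 0.50 (adjusted p = 0.517, limma) became 0 without it. A probe set ending in _x_at that names only Rps9 was at 12.28 on KO 551, and at 11.59 on KO 493, its lowest array.

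Single high arrays were not limited to these genes or to 1 genotype. Of 797 probe sets with a mean of at least 12, 24 had an array at least 1 unit from the next, in each case above it. They lay on every array, from 2 on WT 497 and KO 548 to 7 on KO 551. What set these values apart was not tested.

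**Figure D3:**
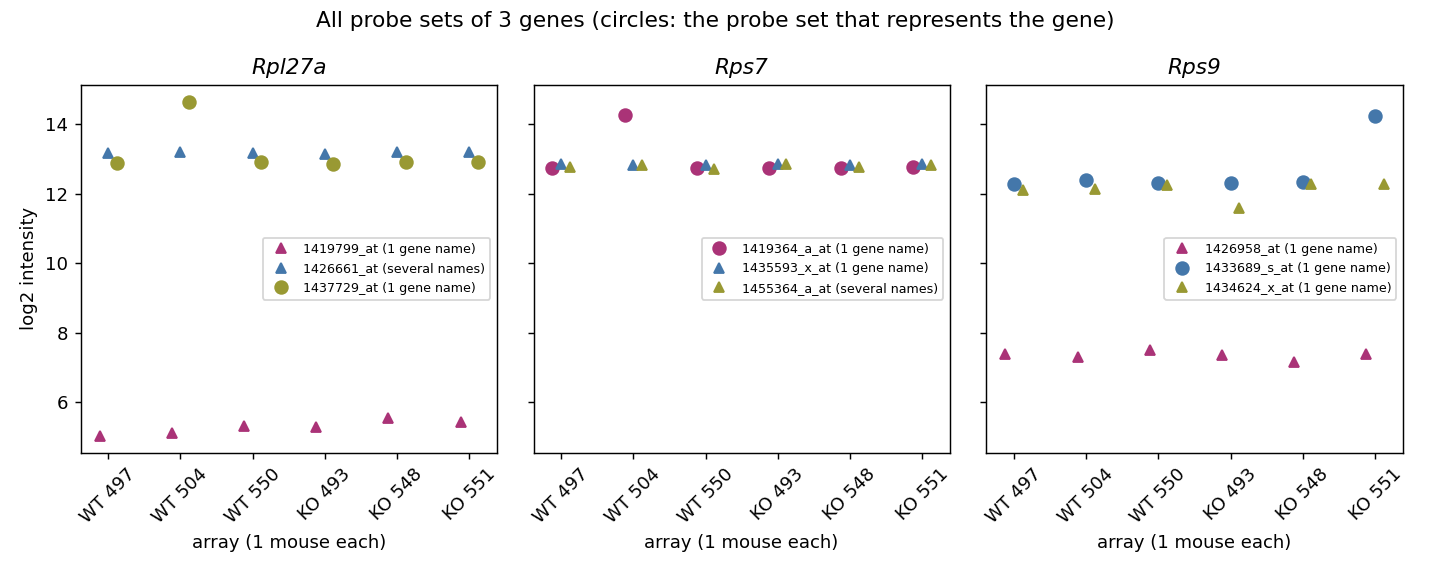
Log2 intensity (vertical axis) of every probe set of Rpl27a, Rps7 and Rps9 on the 6 arrays (horizontal axis), with circles for the probe set that represents the gene and triangles for the others. The circles rise to 14.65 and 14.28 on WT 504 and to 14.23 on KO 551, where no triangle rises with them.

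Among members under a mean of 12, the differences spread more widely. There were 13, of which 7 lay under 6. The places of these 7 on the arrays differed, from percentile 1.2 to 6.1 for Rps16 to percentile 46.4 to 57.7 for Rps27. Rps6, the substrate of the S6 kinases, was at 10.34, 11.01 and 9.39 in WT and 10.36, 9.39 and 9.52 in KO. Values of both groups spread over the same range, with a difference of -0.49 ± 0.44 (SE, limma adjusted p = 0.575). Rps25, a protein of the head of the small subunit, was at 8.82, 9.54 and 8.69 in WT and 9.82, 9.24 and 9.32 in KO. Its groups overlapped through WT 504, and the difference was 0.44 ± 0.26 (adjusted p = 0.392, limma). Without WT 504 it was 0.71 ± 0.20 (adjusted p = 0.173). Rpl12, which binds at the stalk base, was at 7.50 ± 0.26 in WT and 7.67 ± 0.13 in KO (SD, n = 3). Rpl14 was at 9.33 ± 0.21 and 9.37 ± 0.04. Rps16 (2.89 ± 0.25 in WT, 2.75 ± 0.50 in KO) and Rpl37 (4.08 ± 0.31 and 3.96 ± 0.32) were too dim on these probe sets to read.

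For 8 of these 13 genes a brighter probe set exists that carries several names, the others being pseudogenes, retrotransposed copies, predicted genes or an unnamed locus. Accepting such probe sets, an alternative chosen after the data were seen, raised all 8 above 12 and moved their differences to between -0.077 and 0.047. Rps6 then had a difference of -0.007 (95% interval -0.228 to 0.215), Rps25 of 0.027 (-0.193 to 0.246) and Rpl39 of -0.077 (-0.312 to 0.158). It also added 26 genes that the rule leaves out, such as Rpl5, the partner of Rpl11 on 5S RNA, at -0.013 (95% interval -0.235 to 0.208). Of the resulting 75 genes 0 were called, the median difference stayed at 0.007, and 67 had an interval within 0.5 of 0. Groups did not overlap in 4 (28.7% of all genes), and 5 had a single high array, the added ones being Rpl24 on KO 551 and Rps21 on KO 548. Signals from such probe sets cannot be divided between a gene and its copies. Of the 49 probe sets with a single name that stand for the members, 34 end in _x_at, _s_at or _a_at. Whether these also take up signal from copies was not tested.

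**Figure D4:**
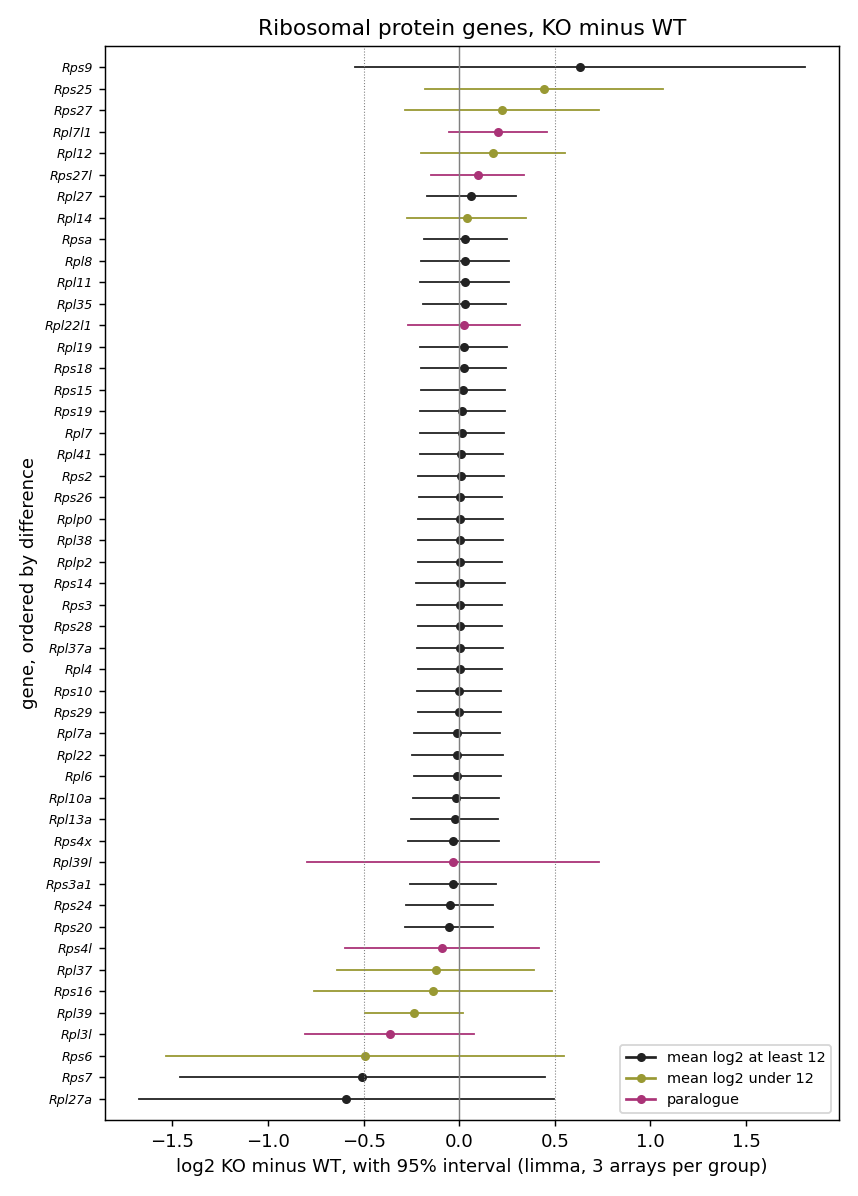
Difference (log2 KO minus WT, horizontal axis) with its 95% limma interval for each of the 49 genes (vertical axis, ordered by difference; 3 arrays per group), with dotted lines at -0.5 and 0.5. Intervals of Rps9, Rps7, Rpl27a and Rps6 are the widest, and every interval includes 0.

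The 6 paralogues, which in other tissues can replace the standard protein in the ribosome or act in its assembly, gave 0 calls. Rps27l, a p53 target in other cells, was at 12.07, 12.18 and 12.01 in WT and 12.13, 12.16 and 12.26 in KO, a difference of 0.10 ± 0.10 (SE). Rpl22l1, whose level the standard Rpl22 protein restrains, was at 11.84, 12.11 and 11.88 in WT and 11.84, 12 and 12.07 in KO. In both the groups overlapped. Rpl3l, the form of striated muscle, lay at 4.43 ± 0.36 in WT and 4.06 ± 0.08 in KO (SD, n = 3), and Rpl39l, known from testis, at 4.76 ± 0.42 and 4.72 ± 0.56. Rps4l was at 5.09 ± 0.38 and 5 ± 0.21. The differences were -0.36 (95% interval -0.807 to 0.08), -0.03 (-0.797 to 0.73) and -0.09 (-0.598 to 0.418). All 3 intervals are wide, and all 3 genes were dim. Each lay under a log2 intensity of 6, between percentiles 17.9 and 45.8 of the arrays.

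The deleted locus lies on chromosome 11, and so do 3 members. Rpl19 was at 12.89, 12.96 and 12.84 in WT and 12.93, 12.91 and 12.92 in KO. Rpl38, a large-subunit protein needed for skeletal patterning in mice, was at 12.93, 13.01 and 12.91 in WT and 12.96, 12.95 and 12.96 in KO. Rpl27 was at 12.32, 12.42 and 12.26 in WT and 12.38, 12.41 and 12.40 in KO. In each the KO values lay inside the WT range, and the differences were 0.02, 0.007 and 0.06. Rpl23, Rpl23a and Rpl26, on the same chromosome but measured only by shared probe sets, were at 0.01, 0.01 and 0.007.

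Other genes around the ribosome are set beside the members here, from the same arrays. Mitochondrial ribosomal proteins, which build the separate ribosome inside mitochondria, had a median difference of 0.175 over 76 genes. Of these 66 were higher, 0 were called by limma, 14 had an unadjusted p under 0.05, all higher, and groups did not overlap in 26; over all genes these shares were 21% and 28.8%. The intensity trend fit called 5 (4.42% of all genes). Mrpl50 had the largest difference (0.97 ± 0.13, SE; limma adjusted p = 0.0503), and was called under the 4 other scalings, with array weights, with dim probe sets left out (which calls 5.61% of the 10152 genes kept) and in the intensity trend fit, but with none of the 6 arrays left out. Mrps27 followed (0.73 ± 0.17; adjusted p = 0.108, limma). Under the 4 other scalings the median of this list was 0.169 to 0.285. Of the 76 genes 2 had a mean of at least 12, against 36 of the 49 cytoplasmic members, and what this difference in level contributes was not tested. No test between the lists was run.

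Factors that assemble ribosomal subunits had a median of 0.242 over 20 measured genes, 18 of them higher, and 0.271 to 0.352 under the other scalings. An unadjusted p under 0.05 occurred for 8, all higher, and groups did not overlap in 11, against 21% and 28.8% of all genes. Limma called 1 (0.385% of all genes), Nle1, which acts in maturation of the large subunit and lies on chromosome 11. It was at 5.71, 6.18 and 5.98 in WT and 7.83, 8.13 and 8.14 in KO, so that the groups lay far apart, and rose by 2.08 ± 0.16 (SE, adjusted p = 0.012). The call ended without WT 550 (adjusted p = 0.0551), KO 548 (0.0721) or KO 551 (0.0598), and with a block for low and high title numbers (0.0501). The difference itself was 1.95 to 2.19 over the 6 fits with 1 array left out, and 2.02 with the block. Tsr2, which escorts the Rps26 protein to the assembling subunit, was at 0.50 (adjusted p = 0.121, limma), while Rps26 itself was at 0.007.

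Initiation factors had a median of 0.087 over 28 genes, 22 of them higher. Limma called 0, and 4 had an unadjusted p under 0.05 (21% of all genes). Eif2b1, a subunit of the exchange factor for eIF2, was at 0.53 and Eif4g2 at 0.28 (limma adjusted p = 0.108 and 0.185). The intensity trend fit called Eif4g2 (4.42% of all genes). The fit without dim probe sets called Eif2b1 (5.61% of the 10152 genes kept). Elongation and release factors had a median of 0.013 over 11 genes, and 1 was called (0.385% of all genes). Eif5a2, a paralogue of the factor that helps ribosomes past proline stretches, was at 9, 9.08 and 8.90 in WT and 9.96, 10.01 and 10.24 in KO. It rose by 1.08 ± 0.12 (adjusted p = 0.0295, limma), but lost the call without WT 497 (adjusted p = 0.109), WT 504 (0.0997), WT 550 (0.0902), KO 493 (0.0987), KO 548 (0.127) or KO 551 (0.102), and with the block (0.0896). The difference was 0.99 to 1.13 over those 6 fits and 1.07 with the block.

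Regulators of pyrimidine-tract messengers and of mTOR had a median of 0.063 over 15 genes. Limma called 0, and 2 had an unadjusted p under 0.05 (21% of all genes), both higher. These were Larp1, which binds such messengers at the cap, at 0.55 (adjusted p = 0.125), and Larp4 at 0.33 (adjusted p = 0.171); the intensity trend fit, which calls 4.42% of all genes, called both. Other pyrimidine-tract messengers had a median of 0.07 over 8 genes. Limma called 0, and 1 had an unadjusted p under 0.05 (21% of all genes). This was Vim, an intermediate filament protein, at -0.39 (adjusted p = 0.215). Naca, a chaperone subunit at the ribosome exit, had a single high array, KO 493 at 14.23 with the others at 12.23 to 12.44. Fau, which encodes a small-subunit protein fused to a ubiquitin-like protein, was at 12.68 ± 0.03 in WT and 12.73 ± 0.01 in KO (SD, n = 3).

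Ribosome rescue genes gave 0 calls of 10 by limma and 4 at an unadjusted p under 0.05 (21% of all genes). Those of smallest p were Ltn1, the ligase that marks peptides stuck on stalled ribosomes, at 0.44 (adjusted p = 0.097), and Gcn1, a sensor of collided ribosomes, at 0.61 (adjusted p = 0.158, limma). The intensity trend fit and the fit without dim probe sets called Ltn1. These fits call 4.42% of all genes and 5.61% of the 10152 genes kept. Pelo, which splits stalled ribosomes, at -0.32 (adjusted p = 0.192) and Rnf10, a ubiquitin ligase for small-subunit proteins, at -0.33 (adjusted p = 0.247, limma) were the other 2 with an unadjusted p under 0.05. The p53 checkpoint, through which free ribosomal proteins act, had 5 measured genes. Limma called 0, and 3 had an unadjusted p under 0.05 (21% of all genes). The intensity trend fit (4.42% of all genes) called Ccng1 and Mdm4. Mdm4 was at 0.39 and Ccng1 at 0.43 (adjusted p = 0.141 and 0.147), while the cell cycle inhibitor Cdkn1a was at 7.34, 7.17 and 7.89 in WT and 6.82, 6.80 and 6.92 in KO (-0.62, adjusted p = 0.165). All 3 Cdkn1a values of KO lay below those of WT, without passing the test.

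**Figure D5:**
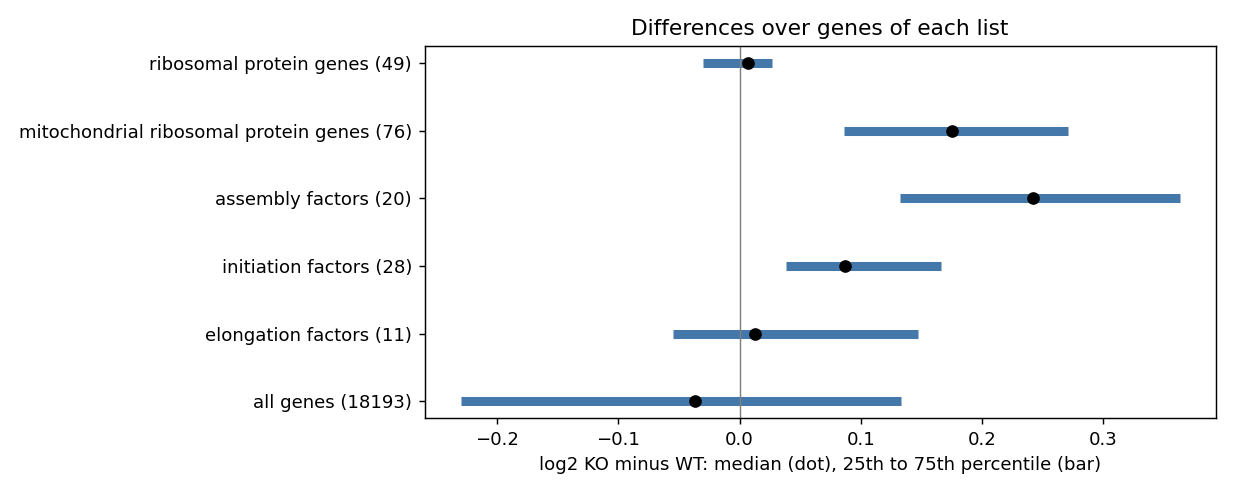
Median difference (log2 KO minus WT, dots) and 25th to 75th percentile (bars) over the genes of each list, with the number of genes in brackets. Ribosomal protein genes lie at 0.007 with the narrowest bar of the 6 drawn, mitochondrial ribosomal protein genes at 0.175, assembly factors at 0.242 and all genes at -0.037.

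Markers of other blood cells were present on all arrays and lower in KO for most lists. The mean over 10 neutrophil markers lay between 11.54 and 11.78 in WT and between 11.16 and 11.43 in KO, over 8 B cell markers 8.74 to 9.29 and 8.24 to 8.58, and over 7 T and NK markers 6.78 to 7.6 and 6.14 to 6.63. Macrophage (9 measured, 8.88 to 9.2 and 8.61 to 8.84) and eosinophil, basophil and mast cell lists (6 measured, 8.57 to 9.46 and 8.18 to 8.33) also did not overlap. Megakaryocyte markers (7 measured) did, at 9.29 to 9.44 and 9.25 to 9.54. The erythroid list was lower in KO as well, with 8 of 9 genes lower and means of 12.32 to 12.42 and 12.25 to 12.29. Of all genes 55.7% had a lower mean in KO, and in 16.2% every KO value lay below those of WT. The log2 difference between the 3′ and 5′ control probe sets of actin, a sign of RNA integrity, was higher in KO (1.82 to 1.86, against 1.65 to 1.67), while that of Gapdh overlapped (1 to 1.05 in KO and 1.03 to 1.09 in WT). What these bring to the differences of the ribosomal protein genes was not tested, and in sorted bulk RNA fewer cells of a type and less RNA per cell cannot be told apart.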

How the data were processed

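The deposited values are probe-set intensities on a linear scale that the authors made with RMA, per the submitters' processing notes; software, version and background step are not given in the sources used here. RMA draws all arrays toward a shared distribution, which removes part of any shift common to most genes. All values (100%) matched 2 raised to an exponent of 2 decimals, to within 0.01, and were returned to log2, with no further normalization. Of 45101 probe sets, 64 controls were left out. GEO's platform annotation gave 1 gene name for 34945 probe sets and several for 932; all 49 members matched RefSeq by gene identifier.

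Differences were fitted without covariates by limma 3.58.1 (R 4.3.3; functions lmFit, then eBayes) on all 6 arrays, with Benjamini-Hochberg adjustment over 45037 probe sets and a threshold of 0.05; the code was tested on simulated data. SDs are over 3 arrays, whose number limits precision. The p-values and intervals rest on the spread between these arrays together with limma's prior. In bright members the prior dominates, as their median SD within groups was 0.0434 and their median SE 0.0949. The text names the 8 largest rises and falls, members on chromosome 11, paralogues, 4 anaemia genes of smallest p, probe sets of opposite sign (0 met the range of 1), fixed genes, and per list the called genes or the 2 of smallest p; further members are given as examples. Members and lists were chosen with earlier results of these data known. Alternatives were 4 scalings, a trend, array weights, a filter at a mean log2 of 6, 4 other ways to name or pick probe sets, shared probe sets accepted (chosen after seeing the data), a block for title numbers, and leaving out each array.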

Additional observations from a re-analysis of the deposited data

How the results depend on the processing

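Across all 19 alternatives, 18 planned and 1 chosen after seeing the data, limma called 0 ribosomal protein genes. Each of the 25 named members stayed uncalled wherever it could be computed. In any 1 alternative the sign of the difference changed for at most 8 of the 25. Larger differences changed sign too: Rps7 went from -0.51 to 0.01 without WT 504, and Rps27 from 0.223 to -0.007 with shared probe sets accepted. The count with a lower mean in KO, 18 of 49, was 29 with cyclic loess, 7 with median centring, 8 with 75th percentile centring, 11 of 26 without probe sets ending in _x_at, _s_at or _a_at, and 29 of 75 with shared probe sets accepted. The median difference, 0.007, was 0.117 with median centring and 0.063 with 75th percentile centring, where the median of all genes was 0.073 and 0.02. Groups did not overlap in 21 members with median centring (30.9% of all genes), against 3. Leaving out 1 array gave medians of -0.007 to 0.03, 11 to 33 members lower and 3 to 21 without overlap. The cause of these shifts was not tested. No paired analysis was possible because no title number occurs in both groups. Wide intervals limit what the members under a mean log2 of 12 can show, and 3 arrays per group limit all.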
